A study of Mus musculus with 40 samples.

Results

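The comparison described here sets 3 CBA libraries (CBA A, B and C) against 3 libraries of the parental YUMM1.7 cultures, which are 6 of the 40 libraries of the series. Both groups were taken by their labels and no measured value was used. YUMM1.7 is a mouse melanoma line derived on the C57BL/6 background that carries a mutant Braf and lacks Cdkn2a, alterations that all groups share. It was transplanted from mouse to mouse in a chain of tumour passages whose groups are named F0, F1, F2, N2.1, N2.2, N2.3, Balb/c-1, Balb/c-2 and CBA, and the comparison spans the whole chain. RNA was taken from cultured cells: tumours were dissociated and their cells grown in vitro for 1 to 3 passages before poly(A) RNA was sequenced. The CBA libraries come from 3 tumours of the last group, labelled with its name and no drug treatment. The YUMM1.7 libraries are 3 replicate cultures of the starting line, labelled as untreated; their tissue field reads dissociated tumour like that of every other library. Strain genotypes beyond the group names, and the age and sex of the mice, are not given in the labels.

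The passage chain was run once and starts from 1 line, so the p-values below measure the spread between cultures of that line and between tumours at the end of 1 chain. The library sets also differ. The CBA libraries carry names of the same form as the 3 libraries labelled Balb/c-2 rep2, which repeat Balb/c-2 tumours, the YUMM1.7 libraries carry names of the earlier form, and the labels speak of 2 sequencing batches without placing each library in one. Passage and library set therefore cannot be told apart in this comparison. The Balb/c-2 rep2 libraries were set against the earlier Balb/c-2 libraries of tumours with the same letters. This gives a view of the difference between the library sets for 1 group, and its counts stand beside the main ones. The fit took these libraries as unpaired although the letters match. Spread between tumours is therefore part of its error, and its counts can understate the difference between the library sets.

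What was measured is RNA that maps to annotated transposable elements and other repeats, copy by copy. Long terminal repeat (LTR) retrotransposons are relatives of retroviruses, with internal gene regions (names ending in int or I) between 2 terminal repeats that carry promoter and polyadenylation signals; in mice this class holds families that still move, among them IAP and ETn/MusD. LINE-1 elements copy themselves through an RNA with their own reverse transcriptase, and the SINE families B1, B2 and B4 are short elements that use the LINE-1 machinery. Most copies are kept silent by DNA methylation and by histone H3 lysine 9 methylation that KRAB zinc finger proteins direct to them, and cells that lose DNA methylation are known to transcribe more of them. A repeat can also be read because it lies inside the exon or intron of a host gene, and neither the strand of counting nor the handling of reads that match several copies is stated in the sources used, so RNA started in a repeat and RNA of a host gene running through it cannot be told apart. Among near-identical copies (IAPEY4_I-int and MMERVK10D3_I-int here) the split of reads between loci is uncertain for the same reason.

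The value of a copy, called signal here, is a read count that the authors divided by 1 factor per library. The CBA libraries hold 1682589 to 1771698 reads in repeats and the YUMM1.7 libraries 1709100 to 1861048. Melanoma identity rests on few repeat-bearing genes: of 11 melanocyte genes 4 could be tested and none was called, with a summed level of the list of 799 to 857 in CBA and 884 to 1088 in YUMM1.7 cells, and Tyr, Mlana, Oca2, Mc1r and Slc24a5 were at 0 in all 6 libraries. Markers of other cells outside the fibroblast list were low in both groups where they could be read. Only markers with a repeat copy in their exons could be read. These were 13 of 26 for leukocytes, 4 of 14 for endothelial and mural cells and 3 of 12 for keratinocytes. For muscle and adipocytes they were 4 of 14, and for fibroblasts 9 of 19. The other markers were not visible, so the absence of these cells was not shown. Leukocyte markers summed to 76.4, 55.4 and 17.6 in CBA, against 13.5, 9.09 and 17.4 in YUMM1.7 cells, with Cd3e and Cd3g at 0; endothelial markers summed to 34.0 to 51.1 in CBA and 32.8 to 62.9 in YUMM1.7 cells with Vwf at 0; keratinocyte markers were at 0 but for 1.09 in CBA B, and muscle and adipocyte markers were at 0 throughout. Fibroblast markers, which cultured melanoma cells also express, summed to 1406, 1795 and 1124 in CBA and 1646, 2000.0 and 2784 in YUMM1.7 cells, with Fap and Thy1 at 0. In bulk RNA, fewer cells of a type and less RNA per cell cannot be told apart.

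Of 835636 annotated copies, 33215 had a mean signal of at least 5 over the 40 libraries and were tested. In CBA 2168 copies were higher and 1278 lower than in YUMM1.7 cells (limma on log2(signal + 1), Benjamini-Hochberg adjusted p under 0.05), which is 6.53% and 3.85% of the tested copies. Of all 3446 called copies, 3300 did not overlap between the 3 CBA and the 3 YUMM1.7 libraries. That count describes the calls and is no further test of them, since a low p goes with separated groups. In the comparison of library sets, Balb/c-2 rep2 against Balb/c-2, 77 copies or 0.232% were called. The median log2 fold change of all tested copies was 0.23 on the deposited scale and 0.07 after TMM scaling, a shift that moved the split to 1577 higher and 1689 lower, so the balance of directions depends on the scaling. Subtracting the library set difference left 988 called copies, 651 higher and 337 lower. The subtraction also adds the error of that difference, so a call can be lost while its estimate stays. The ID_B1 copy of Rasgrf1, described below, had no signal in any Balb/c-2 or Balb/c-2 rep2 library, so its estimate of -6.96 could not move. Its limma adjusted p rose from 1.43e-08 to 6.6e-05, and its call was kept. Other estimates moved, as for the X30_DNA subfamily, from 2.77 to 2.04. Whether a call lost in this fit reflects a library set difference or the added error was not tested. At the extremes, 79 called copies with a CBA mean of at least 20 had no read in any YUMM1.7 library, and 43 with a YUMM1.7 mean of at least 20 had none in any CBA library.

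Several called copies hold the annotated start of a transcript. Their start windows are printed here because they show which repeat letters stand at that start in copies read almost only at 1 end of the chain. The signal is that of the copy, and the transcript was not measured apart from it. Of the tested copies, 186 touch the window from 250 bases before to 50 bases after an annotated gene start. Of these, 24 were called higher and 13 lower, beside 6.53% and 3.85% of all tested copies. Among the called ones, 18 higher and 12 lower copies had no overlap between the groups and a mean of at least 20 in the higher group. In 14 and 7 of those the annotated start lies inside the copy. The windows below are from RefSeq on GRCm38.p6, read 5′ to 3′ on the strand of the gene, with the first 50 transcribed bases in capitals. The first is Gm11884 at chr4:23387415-23387714 on the plus strand, of which all 300 bases belong to an L1MdF_IV copy. The second is Gm38450 at chr4:23260534-23260833 on the plus strand, with 288 bases in an MMERVK10D3_I-int copy. The third is Gm20756 at chr6:25931176-25931475 on the plus strand, with 300 bases in an RLTR44-int copy. The fourth is Gm29630 at chr1:132278329-132278628 on the minus strand, with 248 bases in an ORR1A2 copy. The fifth, 6720473M11Rik at chr16:3633139-3633438 on the minus strand with 179 bases in an IAPEY4_I-int copy, is the one that was lower in CBA.
Gm11884: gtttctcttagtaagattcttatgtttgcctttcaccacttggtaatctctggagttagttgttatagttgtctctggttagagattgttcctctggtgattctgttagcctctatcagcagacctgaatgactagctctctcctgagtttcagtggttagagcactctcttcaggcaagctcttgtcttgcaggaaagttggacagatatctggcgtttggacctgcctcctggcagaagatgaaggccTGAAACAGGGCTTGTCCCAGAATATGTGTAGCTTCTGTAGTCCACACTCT
Gm38450: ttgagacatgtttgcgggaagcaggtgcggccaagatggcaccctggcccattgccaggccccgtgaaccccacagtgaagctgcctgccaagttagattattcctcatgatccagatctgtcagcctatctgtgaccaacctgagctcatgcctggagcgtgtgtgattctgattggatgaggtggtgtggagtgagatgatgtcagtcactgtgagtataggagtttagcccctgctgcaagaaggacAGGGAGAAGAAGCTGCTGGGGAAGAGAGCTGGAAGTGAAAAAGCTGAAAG
Gm20756: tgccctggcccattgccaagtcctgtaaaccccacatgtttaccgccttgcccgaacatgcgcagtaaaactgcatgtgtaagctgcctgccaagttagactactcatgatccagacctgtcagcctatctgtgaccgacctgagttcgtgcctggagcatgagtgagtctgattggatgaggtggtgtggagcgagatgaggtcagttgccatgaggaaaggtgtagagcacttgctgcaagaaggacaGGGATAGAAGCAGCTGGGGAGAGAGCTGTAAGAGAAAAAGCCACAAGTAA
Gm29630: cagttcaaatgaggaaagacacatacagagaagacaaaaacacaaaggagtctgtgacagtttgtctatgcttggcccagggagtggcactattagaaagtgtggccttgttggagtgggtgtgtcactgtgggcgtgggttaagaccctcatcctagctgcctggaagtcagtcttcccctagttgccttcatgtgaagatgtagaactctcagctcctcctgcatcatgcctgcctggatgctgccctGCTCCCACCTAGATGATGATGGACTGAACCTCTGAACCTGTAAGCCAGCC
6720473M11Rik: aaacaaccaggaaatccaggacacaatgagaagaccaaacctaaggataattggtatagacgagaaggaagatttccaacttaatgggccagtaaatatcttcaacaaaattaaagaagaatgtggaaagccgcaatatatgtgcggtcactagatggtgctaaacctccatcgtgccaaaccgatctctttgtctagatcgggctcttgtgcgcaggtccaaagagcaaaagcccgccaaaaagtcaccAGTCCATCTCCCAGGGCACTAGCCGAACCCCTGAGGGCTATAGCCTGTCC
The letters TATAAA, searched on both strands, occur in none of these 5 windows and in 13.6% of all 32851 windows of that length. CG pairs number 1, 4, 6, 1 and 9 in the order printed, against a median of 7 over all windows.

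These start copies were chosen as called and without overlap, so the separation of the groups in their signals was set by the selection. The L1MdF_IV copy of Gm11884 (chr4:23381829-23387942) had a signal of 395.5, 448 and 864 in CBA, against 1.94, 3.03 and 0.966 in YUMM1.7 cells, a log2 fold change of 7.55 ± 1.10 (SE; limma, adjusted p = 6.46e-06). The MMERVK10D3_I-int copy of Gm38450 had 160, 192 and 227 in CBA, against 0, 4.04 and 7.72 in YUMM1.7 cells (5.77 ± 0.97, limma adjusted p = 6.85e-05). In both the groups did not overlap. RefSeq lists Gm38450 and Gm11884 as separate starts, while GENCODE has 1 gene, Gm11884, across both (chr4:23260784-23392503), so these are 2 windows of 1 locus. The RLTR44-int copy of Gm20756 had 28.2, 46.7 and 28.1 in CBA, against 0, 0 and 1.93 in YUMM1.7 cells (4.59 ± 0.89, limma adjusted p = 0.000439). The ORR1A2 copy of Gm29630 had 22, 35.9 and 21.1 in CBA and no read in the 3 YUMM1.7 libraries. The 4 copies had reads in every CBA library. The IAPEY4_I-int copy of 6720473M11Rik had 1.05, 1.09 and 0 in CBA, against 81.3, 38.4 and 22.2 in YUMM1.7 cells, a fall of the log2 signal with an estimate of -4.70 ± 0.92 (limma, adjusted p = 0.000505). At the start of Tfpi, which encodes the inhibitor of the tissue factor pathway of coagulation, an RLTR42 copy had 71.1, 81.5 and 62.1 in CBA, against 16.5, 20.2 and 17.4 in YUMM1.7 cells (1.93 ± 0.38, limma adjusted p = 0.000542). At the start of Raet1e, a ligand of the natural killer cell receptor NKG2D, a B3 copy with 79 bases in the window had 53.4, 60.9 and 80.9 in CBA and 2.90, 0 and 0 in YUMM1.7 cells.

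The copies with the largest estimates were single loci whose signal was close to 0 at 1 end of the chain, and they were drawn from many families. Taking the 8 highest called copies by log2 fold change, with no overlap, a mean of at least 20 in the higher group and at most 1 copy per gene or 20 kb, the top one was a YREP_Mm copy in a coding exon of Gm773 (chrX:56196019-56196584). Its signal was 802, 726 and 715 in CBA, against 1.94, 0 and 0 in YUMM1.7 cells, a log2 fold change of 9.03 ± 1.07 (limma, adjusted p = 1.29e-07). All 3 CBA tumours held it at a like level. An intergenic ERVB2_1-I_MM copy (chr1:7054728-7055734) had 228, 192 and 633 in CBA, against 0.968, 0 and 0 in YUMM1.7 cells (7.92 ± 1.2, limma adjusted p = 1.17e-05). An intergenic IAPEY4_I-int copy (chr4:3192212-3200530), at the annotated start of Gm52720, had 1758, 1654 and 501 in CBA, against 0.968, 18.2 and 7.72 in YUMM1.7 cells (7.36 ± 0.94, limma adjusted p = 6.46e-07). The first of these was highest in CBA C, the second lowest in CBA C, and in neither did the groups overlap.

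The other higher copies also differed among the 3 tumours. An MMERVK10D3_I-int copy (chr14:19225814-19229662) had 332, 318 and 87.9 in CBA, against 1.94, 0 and 0 in YUMM1.7 cells (7.21 ± 1.35, limma adjusted p = 0.000285). An Lx8 copy in the 3′ UTR of Nxf3 (chrX:136072639-136073035), a gene of the mRNA export factor family, had 82.7, 52.2 and 581 in CBA, against 0, 1.01 and 0 in YUMM1.7 cells (6.77 ± 0.97, limma adjusted p = 4.67e-06). A second MMERVK10D3_I-int copy (chr11:31545550-31548795) had 92.1, 142 and 1347 in CBA, against 0.968, 3.03 and 1.93 in YUMM1.7 cells (6.52 ± 1.17, limma adjusted p = 0.000152). CBA C stood above the other tumours at the last 2 of these copies and below them at the first. An IAP1-MM_I-int copy (chr15:19647741-19650047) had 87.9, 82.6 and 157 in CBA and no read in any YUMM1.7 library, so it was at least 37.1-fold higher, counted against a floor of 3 reads per library (limma adjusted p = 3.97e-09).

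Of the 8 lowest copies by the same rule, 6 lie in exons. The MuRRS-int copy in a coding exon of Zfp503 (chr14:21987495-21987585), a zinc finger repressor of transcription, had no read in any CBA library, against 733, 450.3 and 424 in YUMM1.7 cells, and was at least 162-fold lower by the same floor (limma adjusted p = 2.01e-14). The MARE6 copy in the coding exon of Zcchc3 (chr2:152413614-152414304), a co-sensor of cytosolic DNA and RNA in innate immunity, had 2.09, 0 and 0 in CBA, against 294, 266 and 165 in YUMM1.7 cells (-7.34 ± 0.66, limma adjusted p = 4.71e-10). The B4 copy in the 3′ UTR of Casc4 (chr2:121935041-121935201) had 4.18, 3.26 and 0 in CBA, against 382, 356 and 630 in YUMM1.7 cells (-7.30 ± 0.60, limma adjusted p = 3.48e-11). In each of these 3 the CBA libraries were nearly empty and the YUMM1.7 libraries lay within about 1 doubling of each other.

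Another 4 called copies had no read in any CBA library. An MT2B2 copy in a coding exon of Ociad2 (chr5:73332075-73332316) had 162, 117 and 150 in YUMM1.7 cells (at least 43.2-fold lower in CBA), and an IAPEY5_I-int copy in a coding exon of 1500011B03Rik (chr5:114822402-114822901) had 165.5, 102 and 181 (at least 45.2-fold lower in CBA). A PB1D10 copy in the 3′ UTR of Phyh (chr2:4938393-4938456), the peroxisomal enzyme of phytanic acid breakdown, had 78.4, 147 and 168 in YUMM1.7 cells (at least 39.7-fold lower in CBA). An ID_B1 copy in an intron of Rasgrf1 (chr9:90019290-90019486), an imprinted exchange factor of Ras, had 156, 109 and 110 in YUMM1.7 cells (at least 37.8-fold lower in CBA). Their limma adjusted p-values lay between 1.43e-08 and 1.37e-05. The last, an intergenic RMER19B copy near the start of Dmp1 (chr5:104197201-104198095), had 0, 1.09 and 3.52 in CBA, against 221, 205 and 209 in YUMM1.7 cells (-6.65 ± 0.87, limma adjusted p = 8.95e-07). All 16 copies named by the rule kept their call when any 1 library was left out, and the plot of the named copies shows the 6 libraries at each.

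**Figure D1:**
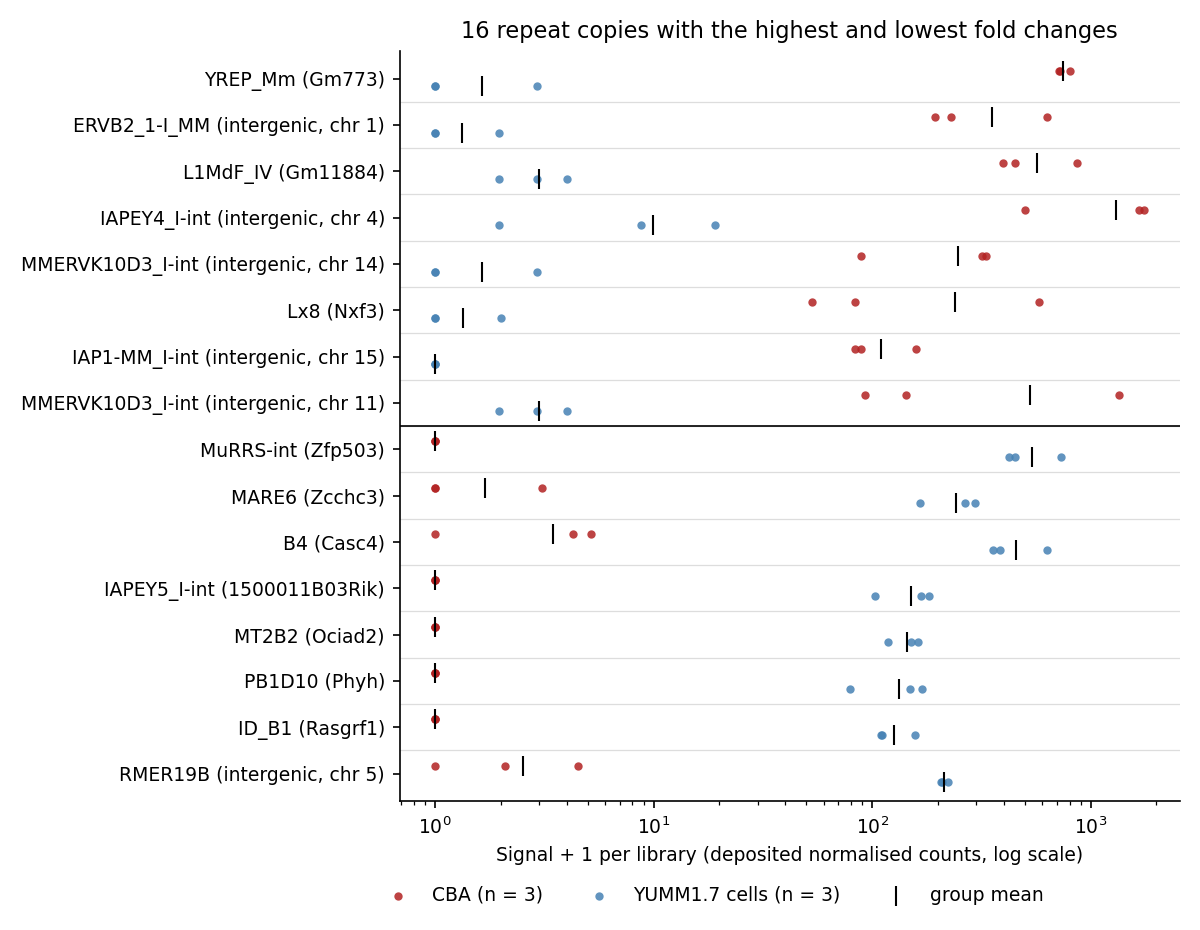
Signal + 1 (log axis) of the 16 repeat copies with the largest called differences, 1 dot per library, CBA in red and YUMM1.7 cells in blue, with bars at the group means. The 8 upper copies have a signal of 18.2 or less in the YUMM1.7 libraries and 52.2 or more in the CBA libraries, and the 8 lower ones have 4.18 or less in CBA and 78.4 or more in YUMM1.7 cells.

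Many called copies came in runs along the chromosome, which were looked for after the copies had been called. Within 20 kb steps, at least 5 non-overlapping called copies of the same direction formed 71 higher runs with 528 copies and 23 lower runs with 152 copies; 8 of the higher and 1 of the lower runs lie outside genes. The longest higher run, 22 copies in and around Luc7l2 (chr6:38555180-38566813), a splicing factor gene, summed to 729, 1075 and 1155 in CBA, against 160, 239 and 349.5 in YUMM1.7 cells. The run with the ERVB2_1-I_MM copy (chr1:7039139-7057878), 19 copies, summed to 1593, 1416 and 5033 in CBA, against 22.3, 9.09 and 11.6 in YUMM1.7 cells. A run holds only non-overlapping copies of the same direction, so the separation of the groups in these sums was set by the selection. The second run was next to silent at the start of the chain.

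Other higher runs, picked out after their values were seen, lay at Apobec3, Raet1e and Mdm2. The 16 copies at Apobec3 and D730005E14Rik (chr15:79891196-79914360), where Apobec3 encodes a cytidine deaminase that restricts retroviruses, summed to 1067, 1408 and 1807 in CBA, against 85.2, 102 and 82.1 in YUMM1.7 cells. The 11 copies at Raet1e and C920009B18Rik summed to 183, 205 and 326 in CBA, against 25.2, 29.3 and 47.3 in YUMM1.7 cells. The 11 copies in introns of Mdm2, the ubiquitin ligase of p53, summed to 223, 236 and 359 in CBA, against 81.3, 32.3 and 60.8 in YUMM1.7 cells. The exon copies of Mdm2 were not called: they had 1349, 1187 and 1077 in CBA, against 838, 608 and 866 in YUMM1.7 cells (limma adjusted p = 0.227). A further 3 runs were read in CBA alone or nearly so. The 10 copies of the Gm29630 run (chr1:132272473-132291212) summed to 166, 198 and 205 in CBA and 0 in every YUMM1.7 library, and 8 copies on the X chromosome (chrX:119299485-119333590) to 168, 199.9 and 62.1 in CBA and 0 in every YUMM1.7 library. The 16 copies at Gm20756 (chr6:25931140-26006144) summed to 287, 359.7 and 312 in CBA, against 0.968, 2.02 and 4.83 in YUMM1.7 cells.

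The lower runs were fewer and shorter. The 10 copies at Bcl6b, Slc16a11 and Slc16a13 (chr11:70181707-70226844) summed to 599.5, 406 and 537 in CBA, against 1858, 2545 and 1887 in YUMM1.7 cells. The 10 copies at chr4:88961807-88996262 summed to 15.7, 18.5 and 41.0 in CBA, against 326, 337 and 313 in YUMM1.7 cells. The 10 copies at Oaf summed to 154, 218 and 182 in CBA, against 794.5, 911 and 2465 in YUMM1.7 cells. Here too the separation of the groups in the sums was set by the selection of the copies.

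Where a copy lay relative to genes went with the direction of its change. Of 14031 intron copies tested, 935 or 6.66% were higher in CBA and 168 or 1.20% lower, beside 6.53% and 3.85% of all copies. The higher share was near that of all copies, and the lower share was below it. The median log2 fold change of intron copies was 0.51 (0.36 after TMM scaling), beside 0.23 over all copies. Copies in 3′ UTRs leaned the other way, with 431 higher and 614 lower of 8198 and a median of -0.06. Intergenic copies were called most often in the higher direction for their number, 351 higher and 219 lower of 3493, with a median of 0.04. Copies in 5′ UTRs gave 50 higher and 20 lower of 535, coding exons 148 higher and 105 lower of 2135, and noncoding exons 253 higher and 152 lower of 4823. By class, LINE copies had a median of 0.39, with 427 higher and 166 lower of 4324. LTR copies had 511 higher and 315 lower of 6765 (0.25), SINE copies 991 and 608 of 18257 (0.24) and DNA transposons 99 and 73 of 1416 (0.22). Satellites had 16 higher and 26 lower of 468 (-0.09). After TMM scaling LINE copies had 345 higher and 214 lower, LTR 389 and 391, SINE 691 and 829, DNA transposons 60 and 94 and satellites 8 and 36. Introns then had 706 and 224, intergenic copies 316 and 269 and 3′ UTRs 233 and 837. For 5′ UTRs they were 34 and 26, for coding exons 95 and 141 and for noncoding exons 193 and 192. Several of these balances thus depend on the scaling.

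The share of a library's whole signal that fell in introns was 24.6%, 25.7% and 27.3% in CBA, against 16.7%, 17.5% and 20.3% in YUMM1.7 cells (25.9% ± 1.38 and 18.2% ± 1.87, SD, n = 3 each). The groups did not overlap, and the exact permutation p of 0.1 is the smallest that 3 against 3 can give (0.3 after adjustment over the 6 places). The Balb/c-2 rep2 libraries, whose names have the form of the CBA ones, had 18.4% ± 0.949 and the Balb/c-2 libraries 20.6% ± 3.15. Shares near those of CBA were also found early in the chain. F0 tumours A to D had 25.3%, 24.7%, 23.2% and 21.1%, and the N2.2 tumours 26.7%, 25.2% and 26.0%. The F1 tumours were lower, at 16.1%, 17.5%, 14.6% and 21.4%. Tumours B and E of F2 differed widely, with 14.3% and 24.4%. The share thus did not rise steadily with passage and varied within groups. The 3′ UTR share was 43.5%, 43.0% and 39.1% in CBA, against 47.8%, 48.7% and 46.9% in YUMM1.7 cells, with the same exact permutation p of 0.1 (two-sided, adjusted 0.3). The part of this intron share in the differences of single copies was not tested; with it as a covariate of the fit, 173 intron copies were higher and 148 lower.

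**Figure D2:**
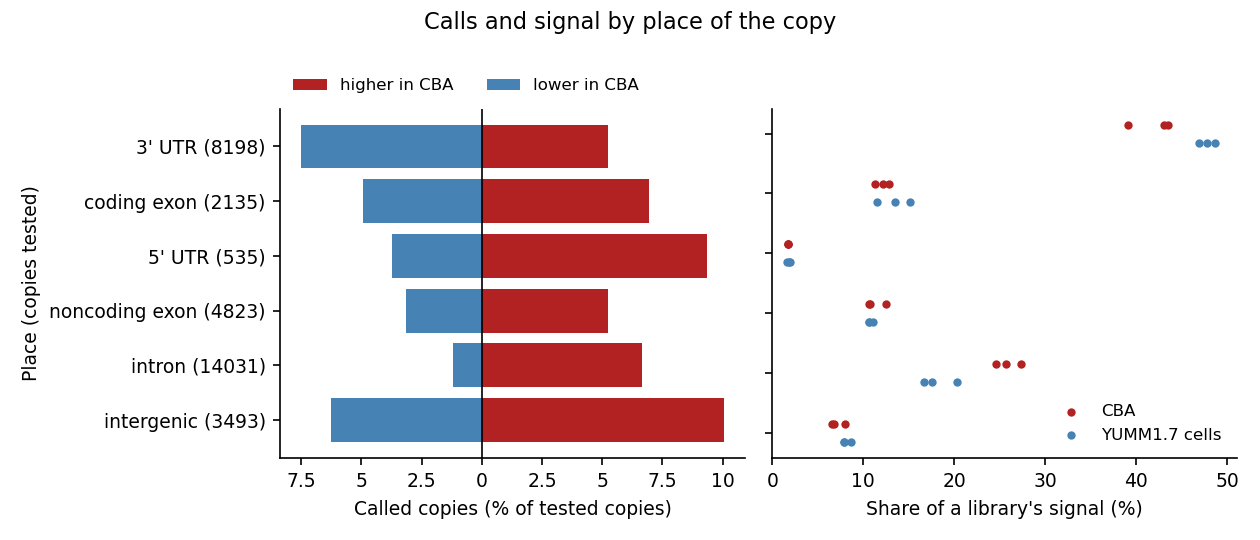
Left, percent of the tested copies in each place that were called lower (blue, leftwards) or higher (red, rightwards) in CBA than in YUMM1.7 cells, with the number tested in brackets. Right, share of each library's signal (%) by place, 1 dot per library, CBA above YUMM1.7 cells; introns reach 24.6% to 27.3% in CBA and 16.7% to 20.3% in YUMM1.7 cells.

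Summed over copies of the same name, 1004 of 1237 subfamilies were tested. In CBA 229 subfamilies or 22.8% were higher and 51 or 5.08% lower than in YUMM1.7 cells (limma, adjusted p under 0.05). The median log2 fold change was 0.23. Of the 280 called 262 did not overlap, which describes the calls and is no further test of them. Balb/c-2 rep2 against Balb/c-2 gave 30 calls or 2.99%. After TMM scaling the median of all subfamilies was 0.05 and the calls 110 higher and 80 lower. With the intron share as a covariate 73 subfamilies were called, 48 higher and 25 lower.

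The largest subfamily differences came down to single loci. In 50 of the 51 lower subfamilies 1 copy made more than 50% of the whole difference, and 42 of those copies lie in exons. The same held for 74 of the 229 higher subfamilies, 45 of them through an exon copy, and for 9 of the 11 whose log2 fold change was past 2. The whole difference is a net sum in which copies of opposite direction cancel, so the share of 1 copy can exceed it. These shares were taken for called subfamilies only, so no value over all tested subfamilies stands beside them. LTR81B had 99.4, 95.6 and 142 in CBA, against 0.968, 3.03 and 8.69 in YUMM1.7 cells (4.71 ± 0.74, limma adjusted p = 2.57e-05). A copy in a noncoding exon of 5430421F17Rik made 56.6% of that. ERVB2_1-I_MM had 247, 305 and 680 in CBA, against 18.4, 20.2 and 57.9 in YUMM1.7 cells (3.69 ± 0.96, limma adjusted p = 0.00511). ERVB4_1B-I_MM had 251, 190.2 and 545 in CBA, against 28.1, 20.2 and 21.2 in YUMM1.7 cells (3.64 ± 0.62, limma adjusted p = 6.69e-05). For both, the main copy lies near 7.05 Mb of chromosome 1, and it made 92.7% of the first difference.

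RLTR10D2 had 80.6, 68.5 and 4.69 in CBA, against 1.94, 1.01 and 1.93 in YUMM1.7 cells (3.62 ± 0.87, limma adjusted p = 0.00282), with 97.5% from an exon of Gm11033. X30_DNA and IAPLTR4 complete the 6 highest. X30_DNA had 24.1, 23.9 and 7.03 in CBA, against 2.90, 3.03 and 0 in YUMM1.7 cells (2.77 ± 0.77, limma adjusted p = 0.00781), and the call was lost without YUMM1.7 replicate 3, with the intron share as covariate and with the library set difference subtracted. IAPLTR4 had 37.7, 22.8 and 43.4 in CBA, against 3.87, 4.04 and 6.76 in YUMM1.7 cells (2.58 ± 0.50, limma adjusted p = 0.00035).

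Among the lower subfamilies, MARE6 had 9.42, 8.69 and 3.52 in CBA, against 296, 266 and 166 in YUMM1.7 cells (-4.94 ± 0.56, limma adjusted p = 5.8e-08). IAPEY5_I-int had 1.05, 7.61 and 7.03 in CBA, against 169, 110.04 and 185 in YUMM1.7 cells (-4.87 ± 0.90, limma adjusted p = 0.000205). Both differences are those of the exon copies in Zcchc3 and 1500011B03Rik described above. MuRRS-int had 144, 216 and 250 in CBA, against 1009, 679 and 711 in YUMM1.7 cells (-1.98 ± 0.21, limma adjusted p = 5.4e-08). The Zfp503 copy made 89.8% of the MuRRS-int difference, and its copies outside exons had an estimate of 0.49 with an adjusted p of 0.223 (limma). MamGypLTR1d (-2.59, adjusted p = 0.000566), MER97a (-2.35, adjusted p = 0.00309) and UCON7 (-2.09, adjusted p = 0.0367) were the other lower ones by limma, with 92.2%, 105% and 102% of the difference from 1 copy each. UCON7 lost its call without YUMM1.7 replicate 1 or without any 1 of the CBA libraries, and also with the intron share as covariate or the library set difference subtracted. MER97a lost its call with the intron share as covariate.

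The active LTR families did not move as a block. Of 24 tested IAP subfamilies 5 were higher and 1 lower, with a median log2 fold change of 0.50. Over all subfamilies 22.8% were higher and 5.08% lower, with a median of 0.23. IAPEz-int, the most abundant, had 6605, 6285 and 8967 in CBA, against 7553, 8024 and 7492 in YUMM1.7 cells, and was not called (limma adjusted p = 0.855). IAPEY4_I-int had 4188, 4494 and 2924 in CBA, against 1067, 1116 and 1042 in YUMM1.7 cells (1.82 ± 0.26, limma adjusted p = 5.96e-06), of which the chromosome 4 copy named above made 46.4%. IAP1-MM_I-int had 1328, 1266 and 1109 in CBA, against 853, 863 and 755 in YUMM1.7 cells (0.58 ± 0.12, limma adjusted p = 0.000528), a call that TMM scaling and edgeR ended. Of 5 ETn/MusD subfamilies 2 were higher and none lower (median 0.55): ETnERV2-int had 103, 154 and 301 in CBA, against 38.7, 64.6 and 70.5 in YUMM1.7 cells (1.57 ± 0.47, limma adjusted p = 0.0126), lost without CBA C or YUMM1.7 replicate 1 and with the intron share as covariate. Of 12 MMERVK10C and RLTR10 subfamilies 6 were higher and none lower (median 0.51). In that list MMERVK10D3_I-int had 1328, 1623 and 6471 in CBA, against 473, 358 and 459 in YUMM1.7 cells (2.49 ± 0.60, limma adjusted p = 0.00285); CBA C was far above the other tumours, and a copy in an intron of Zdhhc14 (chr17:5522679-5524684) with 168, 204 and 2850 in CBA, against 0, 8.08 and 26.1 in YUMM1.7 cells, made 39.2% of the difference. This call was lost with the intron share as covariate.

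Retroviral families of the gamma type went both ways. RLTR4_MM-int, an internal part of endogenous murine leukaemia viruses, had 9884, 11446 and 9659 in CBA, against 5227, 5003 and 5026 in YUMM1.7 cells (1.02 ± 0.14, limma adjusted p = 1.54e-06). A single copy in an intron of Camk2b (chr11:6008771-6011515) with 4166, 4989.6 and 3574 in CBA, against 193, 120.1 and 63.7 in YUMM1.7 cells (5.19 ± 0.57, limma adjusted p = 3.29e-08), made 78.5% of it. MuLV-int, the other large one, spread widely within YUMM1.7 cells, with 19344, 21048 and 24796 in CBA and 33973, 19935 and 12430.0 in YUMM1.7 cells, and was not called (limma adjusted p = 0.808). The 5 VL30 subfamilies gave 3 lower and none higher, with a median of -0.61, beside 5.08% lower and 22.8% higher over all subfamilies (median 0.23). VL30 elements are retrovirus-like RNAs that rodent cells package into virus particles. MMVL30-int had 8260.2, 8856 and 8409 in CBA, against 22700, 20776 and 23903 in YUMM1.7 cells (-1.40 ± 0.40, limma adjusted p = 0.00919). An intergenic copy (chr2:75638103-75642944) with 765, 708 and 902 in CBA, against 11164, 10161 and 9193 in YUMM1.7 cells (limma adjusted p = 0.000263), made 67.2% of that, and the subfamily's call was lost with the intron share as covariate or the library set difference subtracted.

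RLTR6-int had 3896, 3881 and 3844 in CBA, against 6720.5, 6444 and 4732 in YUMM1.7 cells (-0.61 ± 0.12, limma adjusted p = 0.000643), with 88.6% from the noncoding gene Brip1os, and outside exons its estimate was 0.23. MMERGLN-int had 59399, 61769 and 85420.2 in CBA, against 48580.0, 46152 and 54842 in YUMM1.7 cells and was not called (limma adjusted p = 0.146). RLTR1B had 88.9, 85.8 and 148 in CBA, against 123, 606 and 906 in YUMM1.7 cells (-1.96 ± 0.59, limma adjusted p = 0.0131); 98.2% came from the 3′ UTR of Cemip, a hyaluronan-degrading protein, and the call was lost without YUMM1.7 replicate 2 or 3, with the intron share as covariate and with the library set difference subtracted. The remaining LTR lists are read against the 22.8% of all subfamilies called higher and their median of 0.23, and most lay near both. ERVB and RLTR45 gave 4 higher and 3 lower of 20 (median 0.38), RLTR13 and RLTR20 gave 7 and 0 of 38 (0.24), MERVL and MT2 gave 2 and 0 of 8 (0.17), MT gave 9 and 1 of 19 (0.28), ORR1 gave 6 and 0 of 28 (0.20) and RMER gave 14 and 0 of 52 (0.27). After TMM scaling MERVL and MT2 had no call and ORR1 had 1 higher and 3 lower.

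LINE-1 subfamilies gave more higher than lower calls, as did all subfamilies, of which 22.8% were higher and 5.08% lower (median 0.23). Of 12 A, Tf and Gf subfamilies, the youngest mouse lineages, 7 were higher and 1 lower (median 0.44); of 13 F lineage subfamilies 9 were higher and none lower (0.59); and of 29 Lx and L1_Mus subfamilies 13 were higher and 1 lower (0.33). After TMM scaling these were 6 and 1, 6 and 0, and 8 and 1, and with the intron share as covariate 4 and 1, 2 and 0, and 3 and 1. L1MdV_I had 3035, 3640.2 and 3893 in CBA, against 2361, 2443 and 2688 in YUMM1.7 cells (0.49 ± 0.10, limma adjusted p = 0.000419). Lx8 had 14325, 15971 and 16432 in CBA, against 10505, 10955 and 12482 in YUMM1.7 cells (0.46 ± 0.10, limma adjusted p = 0.0007). L1MdA_VII went down, with 1308, 1365 and 1587 in CBA, against 2039.9, 1910.1 and 2049.8 in YUMM1.7 cells (-0.50 ± 0.12, limma adjusted p = 0.00292), and 66.8% of that was 1 intron copy of Gm6634. The calls of L1MdV_I and Lx8 were lost with the intron share as covariate, and that of L1MdA_VII with the library set difference subtracted.

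SINE calls rested on small shifts in very large sums, and the counts here stand beside 22.8% higher and 5.08% lower over all subfamilies (median 0.23). B1 gave 7 higher and 0 lower of 15 (median 0.13), which TMM scaling turned to no call and a median of -0.05. B1_Mus1 had 58952, 62673 and 62627 in CBA, against 56452, 54134 and 56182 in YUMM1.7 cells (0.14 ± 0.05, limma adjusted p = 0.019), and its estimate after TMM scaling was -0.04; the call was also lost without CBA B, CBA C or YUMM1.7 replicate 2. B2 and B3 gave 3 higher of 5 (0.21) and B4, RSINE1 and ID gave 2 higher of 6 (0.07); 1 of the B2 and B3 calls and none of the higher B4 ones held with TMM scaling. Of 11 MIR and L2 subfamilies 3 were higher and 1 lower, of 84 hAT and Tigger DNA transposons 6 were higher and 6 lower, of 34 UCON, MARE and Eulor elements 5 were higher and 5 lower, and of 3 satellites none was called. Counting the copies outside exons alone, 345 subfamilies were called, 334 higher and 11 lower, with a median of 0.53.

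Repeats in exons also report on their host genes. The exon copies of 7254 of 17922 genes could be tested. In CBA 696 genes or 9.59% were higher and 612 or 8.44% lower than in YUMM1.7 cells (limma, adjusted p under 0.05). The median log2 fold change of all tested genes was 0.09, and the gene lists below are read against these shares and this median. Of the 1308 called 1245 did not overlap, which describes the calls and is no further test of them. Balb/c-2 rep2 against Balb/c-2 gave 33 calls or 0.455%, and subtracting that difference left 382 called genes. With TMM scaling the split was 452 higher and 837 lower and the median -0.08. Among called genes 27 with a mean of at least 20 in YUMM1.7 cells had no read in CBA, and 9 showed the reverse.

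The 10 highest genes held several zinc finger and noncoding genes. After Gm773, 2 KRAB zinc finger genes of a chromosome 4 cluster were read in CBA and at 0 in the 3 YUMM1.7 libraries. Zfp985 had 171, 171 and 93.8 in CBA, at least 49.3-fold above the floor (limma adjusted p = 1.47e-05), and Zfp979 had 133, 123 and 95.0 in CBA, at least 39.7-fold (limma adjusted p = 5.09e-11). The 2 are close paralogs and the share of each is uncertain. 5430421F17Rik had 132, 142 and 217 in CBA, against 0.968, 0 and 0 in YUMM1.7 cells (7.0 ± 0.88, limma adjusted p = 5.88e-07). Lrrc75b had 341, 425 and 340.0 in CBA, against 1.94, 6.06 and 0.966 in YUMM1.7 cells (6.74 ± 1.00, limma adjusted p = 9.41e-06). Raet1e had 126, 147 and 188 in CBA, against 6.77, 1.01 and 0 in YUMM1.7 cells (5.93 ± 1.08, limma adjusted p = 0.000159). Nxf3, Gm15398, Gm11884 and Gm20756 completed the 10 with estimates of 6.77, 6.47, 6.25 and 5.89. The rule took only genes without overlap, so in all 10 every CBA library exceeded every YUMM1.7 library by selection.

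The 10 lowest genes were coding genes nearly without reads in CBA. Beside Zfp503, Phyh, Ociad2 (0 in CBA, against 200.3, 160 and 213 in YUMM1.7 cells) and Zcchc3 (2.09, 0 and 0 in CBA, against 507, 488 and 344 in YUMM1.7 cells), they held Sox7, a SOX family transcription factor of endothelial development. Sox7 had no read in CBA, against 115, 121 and 167 in YUMM1.7 cells (at least 40.7-fold lower, limma adjusted p = 1.75e-09). Klhl13, an adaptor of a cullin ubiquitin ligase used in mitosis, had none in CBA, against 114, 104 and 146 in YUMM1.7 cells (at least 36.7-fold lower, limma adjusted p = 5.41e-08). Pmaip1, which encodes the proapoptotic protein Noxa, had none in CBA, against 67.7, 77.7 and 113 in YUMM1.7 cells (at least 26.1-fold lower, limma adjusted p = 3.18e-06). Phactr2 had none in CBA, against 81.3, 95.9 and 93.7 in YUMM1.7 cells (at least 27.3-fold lower), and Casc4 had 4.18, 3.26 and 0 in CBA, against 410.3, 392 and 704 in YUMM1.7 cells. Itih5, a hyaluronan-binding matrix protein, had 2.09, 1.09 and 0 in CBA, against 53.2, 176 and 1815 in YUMM1.7 cells (-7.12 ± 1.42, limma adjusted p = 0.000456), so the parental cultures themselves differed widely.

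Genes of repeat silencing were higher where they were called. Of 30 tested members 7 were higher and none lower, with a median log2 fold change of 0.81 against 0.09 over all genes, and 6 were called with TMM scaling. The list summed to 11452, 11028 and 10469 in CBA, against 6771, 6215 and 4352 in YUMM1.7 cells. Cbx5, which encodes heterochromatin protein HP1 alpha, had 7305, 7070.4 and 6171 in CBA, against 3505, 3096 and 1869 in YUMM1.7 cells (1.32 ± 0.22, limma adjusted p = 6.64e-05). Cbx5 alone was the largest part of the list sum. It lies in the distal part of chromosome 15, whose exon copies had a median shift of 0.698 (log2, CBA minus YUMM1.7 cells), described below. The part of that shift in the Cbx5 difference was not tested. Atrx, a chromatin remodeller that keeps repeats in heterochromatin, had 212, 227 and 236 in CBA, against 117, 118 and 111 in YUMM1.7 cells (0.96 ± 0.18, limma adjusted p = 0.000316). Pphln1, a HUSH complex subunit, had 1041, 1069 and 999.98 in CBA, against 650.3, 664 and 484 in YUMM1.7 cells (0.80 ± 0.18, limma adjusted p = 0.00179). Suv39h2, a histone H3 lysine 9 methyltransferase, had 43.9, 28.3 and 37.5 in CBA, against 18.4, 11.1 and 7.72 in YUMM1.7 cells (1.54 ± 0.39, limma adjusted p = 0.00462). The other 3 lost their call without 1 library: Cbx3 (1.54, adjusted p = 0.0117 by limma) without CBA C, Atf7ip (2.55, adjusted p = 0.00819 by limma) without YUMM1.7 replicate 1, and Resf1 (0.83, adjusted p = 0.00699 by limma) without YUMM1.7 replicate 3. The calls of Suv39h2, Cbx3 and Resf1 were lost with the library set difference subtracted, and those of Cbx3 and Atf7ip with the intron share as covariate. Zfp809, which recognises retroviral primer binding sites, had 439, 439 and 419.7 in CBA and 352, 340.2 and 360.1 in YUMM1.7 cells and was not called (limma adjusted p = 0.116).

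Antigen presentation gave 4 higher and 0 lower of 19, with a median of 0.48, beside 9.59%, 8.44% and 0.09 over all genes. H2-D1, a classical MHC class I heavy chain, had 1543, 2244 and 3581 in CBA, against 674, 978 and 1008 in YUMM1.7 cells (1.41 ± 0.43, limma adjusted p = 0.0189), a call lost without CBA C or YUMM1.7 replicate 1 and with the library set difference subtracted. Nlrc5, the transactivator of class I genes, had 42.9, 146 and 178 in CBA, against 0.968, 14.1 and 2.90 in YUMM1.7 cells (4.43 ± 0.88, limma adjusted p = 0.000456). Tap1, a subunit of the peptide transporter, had 11.5, 27.2 and 25.8 in CBA, against 0, 1.01 and 0 in YUMM1.7 cells (4.07 ± 0.84, limma adjusted p = 0.00065). H2-Q4 had 116, 374 and 893 in CBA, against 23.2, 62.6 and 72.4 in YUMM1.7 cells (limma adjusted p = 0.0397), and was lost with TMM scaling, with the intron share as covariate, with the library set difference subtracted and without any 1 of 5 libraries; H2-D1 and H2-Q4 are paralogs that can share reads. In all 4 genes CBA A was the lowest of the tumours, and H2-T22 and Tapbp were not called (limma adjusted p = 0.441 and 0.463).

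The interferon-stimulated list leaned on 1 tumour. Of 52 members 5 were higher, a share near the 9.59% of all genes, and 1 was lower. The median was 0.87, and the list summed to 6831, 18881 and 8081 in CBA, against 5529, 7183 and 9100.0 in YUMM1.7 cells, so CBA B stood alone and the values of the other 2 tumours lay within those of YUMM1.7 cells. Oas3, an antiviral synthetase that activates RNase L, had 22, 259 and 15.2 in CBA, against 0, 0 and 0.966 in YUMM1.7 cells (5.20 ± 1.34, limma adjusted p = 0.00567). Slfn8, a Schlafen family gene, had 116, 355 and 59.8 in CBA, against 0, 12.1 and 22.2 in YUMM1.7 cells (4.34 ± 1.11, limma adjusted p = 0.00532). Oasl1 had 28.2, 164 and 51.6 in CBA, against 10.6, 12.1 and 3.86 in YUMM1.7 cells (2.81 ± 0.88, limma adjusted p = 0.0221). Without CBA B, Oas3, Oasl1 and Oas1g lost their calls. Slfn8 lost its call without YUMM1.7 replicate 1, and Adar, the RNA editing enzyme that shields cellular double-stranded RNA, with 11.5, 13.0 and 15.2 in CBA, against 2.90, 5.05 and 1.93 in YUMM1.7 cells (1.79 ± 0.52, limma adjusted p = 0.0135), without YUMM1.7 replicate 3. Ifnar1, the type I interferon receptor chain, was lower, with 277, 337 and 343 in CBA, against 524, 517 and 549 in YUMM1.7 cells (-0.74 ± 0.18, limma adjusted p = 0.00324). With the library set difference subtracted none of the 5 higher calls was left, and with the intron share as covariate those of Ifnar1 and Adar were lost. Of 10 tested sensors of nucleic acids none was called (median 0.42).

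Immune ligands and evasion genes gave 3 higher and 2 lower of 14 (median 0.22), beside 9.59% and 8.44% of all genes (median 0.09). Beside Raet1e, Cd276 (the checkpoint ligand B7-H3) had 982, 989.9 and 641 in CBA, against 251, 376 and 399 in YUMM1.7 cells (1.35 ± 0.35, limma adjusted p = 0.00554). Tnfrsf10b, the mouse TRAIL death receptor and a p53 target, had 1547, 1458 and 1771 in CBA, against 662, 483 and 472 in YUMM1.7 cells (1.57 ± 0.32, limma adjusted p = 0.000495). Lgals3 (galectin 3) had 16.7, 6.52 and 17.6 in CBA, against 56.1, 50.5 and 67.6 in YUMM1.7 cells (-2.12 ± 0.49, limma adjusted p = 0.00223). Cflar, an inhibitor of death receptor signalling, had 1959, 2043 and 1635 in CBA, against 2112, 3375 and 4724 in YUMM1.7 cells (-0.79 ± 0.26, limma adjusted p = 0.0328) and lost its call on leaving out any of 5 libraries. Of 3 chemokine and cytokine genes Il11 was lower, with 7.32, 8.69 and 9.38 in CBA, against 58.1, 46.4 and 246 in YUMM1.7 cells (-3.23 ± 0.77, limma adjusted p = 0.00292). The calls of Cd276, Lgals3, Cflar and Il11 were lost with the library set difference subtracted.

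In the p53 target list 4 of 15 were higher and 1 lower (median 0.85), beside 9.59% and 8.44% of all genes (median 0.09). With TMM scaling 1 was higher and 1 lower. Zmat3, an RNA-binding p53 target, had 1448, 1342 and 1807 in CBA, against 573, 451 and 404 in YUMM1.7 cells (1.69 ± 0.32, limma adjusted p = 0.000318). Mdm4, an inhibitor of p53, had 1489, 1585 and 1328 in CBA, against 969.6, 1072 and 964 in YUMM1.7 cells (0.55 ± 0.16, limma adjusted p = 0.0131). Trp53inp1 (1.32, adjusted p = 0.0342 by limma) and Polk (0.85, adjusted p = 0.0146 by limma) were the other higher ones and Pmaip1 the lower one. Mdm4, Trp53inp1 and Polk each lost their call with TMM scaling, with the library set difference subtracted and without CBA B. Of 6 MAPK genes Braf was higher, with 184, 233 and 166 in CBA, against 76.4, 65.6 and 77.2 in YUMM1.7 cells (1.39 ± 0.21, limma adjusted p = 1.17e-05). The plot of list genes shows the 6 libraries for the called members of these groups.

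**Figure D3:**
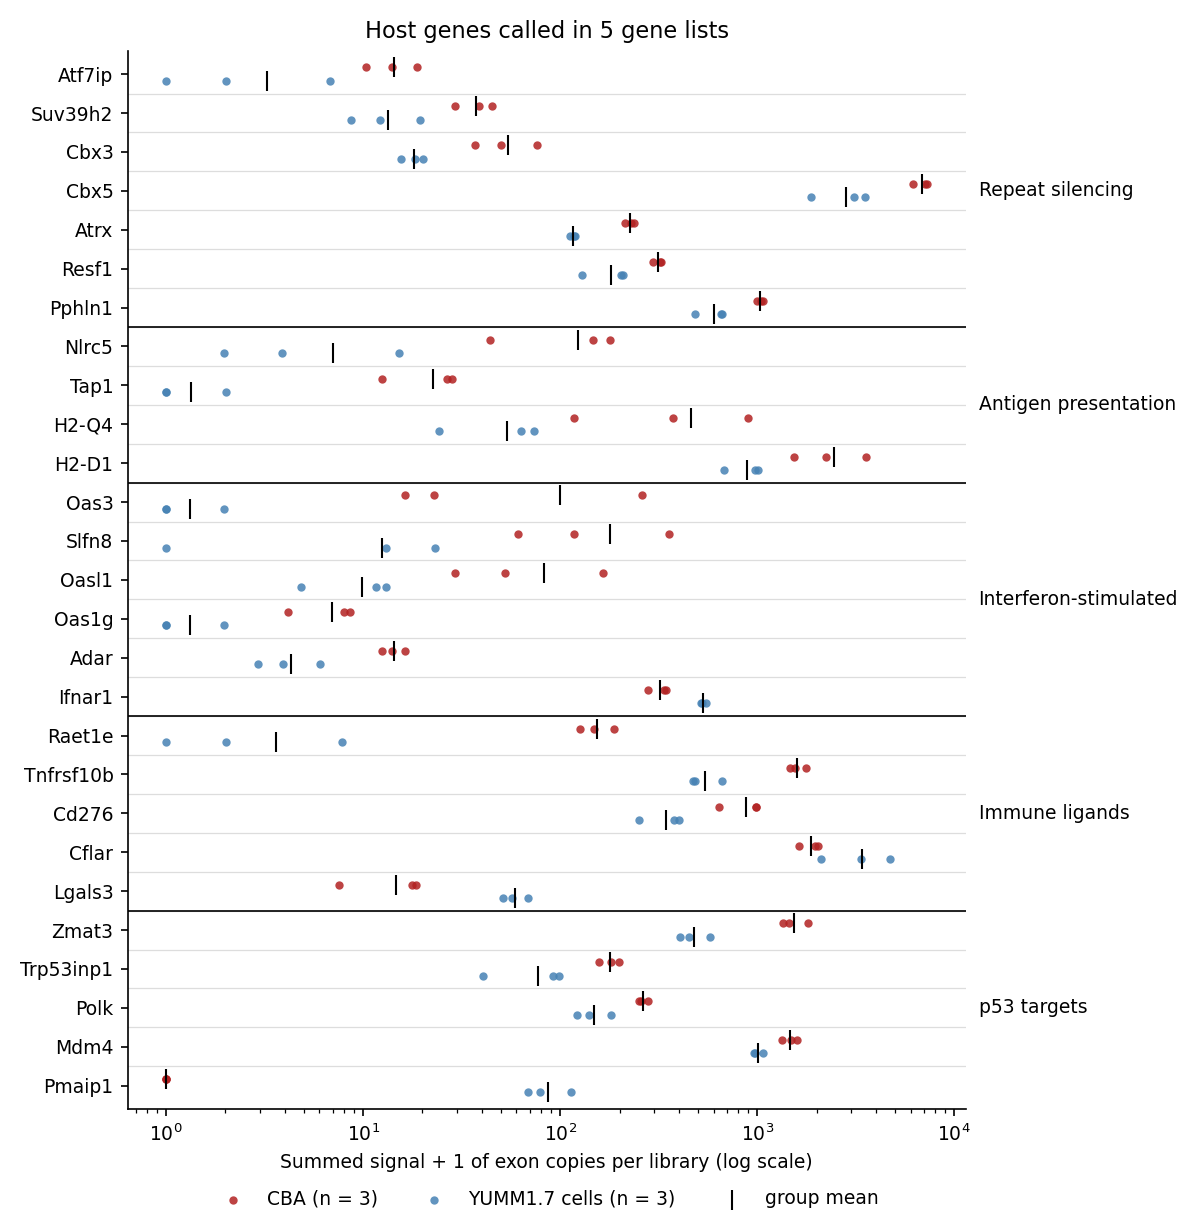
Signal + 1 (log axis) of the exon copies of every called gene in 5 gene lists (repeat silencing, antigen presentation, interferon-stimulated, immune ligands, p53 targets), 1 dot per library, CBA in red and YUMM1.7 cells in blue. CBA B stands far above the other libraries at Oas3 and Oasl1, while Cbx5 and Zmat3 separate the groups with all 3 tumours close together.

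Calls among proliferation genes were near the 9.59% of all genes that were higher, or below it. Of 40 mitosis genes 4 were higher (Top2a, Kif14, Kif15 and Racgap1) and none lower (median 0.55), of 36 replication genes 1 was higher (0.40), and TMM scaling left no call in either list. The mitosis list summed to 15363, 15099 and 13988 in CBA, against 15345, 12822 and 7071 in YUMM1.7 cells, where the third replicate was low. Top2a, with 1658, 1723 and 1609.6 in CBA, against 1343, 1043 and 387 in YUMM1.7 cells (1.03 ± 0.30, limma adjusted p = 0.0135), lost its call without that replicate.

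Neural crest and mesenchymal genes gave 1 higher and 2 lower of 7. Prrx1, a homeobox gene of mesenchyme, had 732, 780.2 and 719 in CBA, against 2042, 2366 and 2087 in YUMM1.7 cells (-1.54 ± 0.24, limma adjusted p = 2.72e-05). Zeb2, a zinc finger factor of melanocyte differentiation, had 167, 209 and 226 in CBA, against 615, 489.6 and 441 in YUMM1.7 cells (-1.35 ± 0.22, limma adjusted p = 2.89e-05). Pdgfra, a growth factor receptor and the 1 called gene of 3 tested in the fibroblast list, had 292, 369 and 273 in CBA, against 875, 1064 and 1644 in YUMM1.7 cells (-1.90 ± 0.37, limma adjusted p = 0.000381), whereas its partner Pdgfrb was not called (1071, 1363 and 758 in CBA, 761, 816 and 959.7 in YUMM1.7 cells). Tead1 was higher (0.82, limma adjusted p = 0.018), a call that TMM scaling ended. Of 19 matrix and adhesion genes 2 were higher and 3 lower. Itga6, an integrin chain that binds laminin, had 401, 249.9 and 129 in CBA, against 2107, 2072 and 2109.6 in YUMM1.7 cells (-3.15 ± 0.72, limma adjusted p = 0.00197), lost with the library set difference subtracted and with the intron share as covariate. Itgav had 665, 791 and 767 in CBA, against 494, 405 and 235 in YUMM1.7 cells (1.03 ± 0.27, limma adjusted p = 0.00747), lost without YUMM1.7 replicate 3 and with the library set difference subtracted.

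Hypoxia genes gave 3 higher and 0 lower of 14, heat shock and unfolded protein genes 4 and 0 of 13, and imprinted genes 0 and 2 of 7. Their medians were 0.32, 0.30 and -0.78. Over all genes 9.59% were higher and 8.44% lower, with a median of 0.09. Car9, the hypoxia-induced carbonic anhydrase IX, had 40.8, 32.6 and 19.9 in CBA, against 0, 0 and 0.966 in YUMM1.7 cells (4.62 ± 0.97, limma adjusted p = 0.000829). Egln3, an oxygen-sensing prolyl hydroxylase, had 314, 328 and 224 in CBA, against 103, 76.7 and 77.2 in YUMM1.7 cells (1.74 ± 0.34, limma adjusted p = 0.000394). Hspb7, a small heat shock protein, had 137, 127 and 147 in CBA, against 10.6, 39.4 and 23.2 in YUMM1.7 cells (2.61 ± 0.68, limma adjusted p = 0.00626). The groups did not overlap in any of these 3 genes. Hspb8 had 70.1, 123 and 1145 in CBA, against 11.6, 13.1 and 0 in YUMM1.7 cells (limma adjusted p = 0.0243), and lost its call without CBA C or YUMM1.7 replicate 3. All 4 heat shock and unfolded protein calls, Hspb7 included, were lost with the intron share as covariate and with the library set difference subtracted, and the Car9 call when copies in exons of several genes were added. The imprinted Rian and Rasgrf1 had no read in CBA, against 42.6, 50.5 and 6.76 for Rian and 56.1, 12.1 and 11.6 for Rasgrf1 in YUMM1.7 cells; the Rian call was lost with the library set difference subtracted.

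The exon copies of whole chromosomes were shifted together on some chromosomes. The shift of a chromosome is the median log2 deviation of its exon copies with a mean of at least 20, minus that of the library's median chromosome. On 11 of 20 chromosomes the groups did not overlap. Chromosome 19 (205 copies) was lowest in CBA, with shifts of -0.128, -0.127 and -0.131 in CBA, against 0.504, 0.404 and 0.308 in YUMM1.7 cells, a difference of -0.53. Chromosome 15 (251 copies) was highest, with 0.179, 0.217 and 0.476 in CBA, against -0.037, -0.194 and -0.380 in YUMM1.7 cells, a difference of 0.49. Chromosome 6 followed with 0.146, 0.167 and 0.101 in CBA, against -0.032, -0.089 and -0.149 in YUMM1.7 cells. The exact permutation p of each is 0.1, the smallest possible, and 0.182 after adjustment over the 20 chromosomes.

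Calls of single copies followed these shifts. On chromosome 15, 209 of 1243 tested copies were higher and 7 lower (16.8% and 0.563%), on chromosome 6, 209 of 1613 were higher and 52 lower, and on chromosome 19, 28 of 1080 were higher and 76 lower. The distal part of chromosome 15 (125 copies) had shifts of 0.500, 0.466 and 0.450 in CBA, against -0.056, -0.186 and -0.436 in YUMM1.7 cells. The proximal part (126 copies) had -0.059, -0.064 and 0.499 in CBA, against 0.003, -0.205 and -0.236 in YUMM1.7 cells, so CBA C alone stood high there. Chromosome 3 showed the same split, with -0.0745, -0.110 and 0.219 in CBA, against -0.171, -0.132 and -0.142 in YUMM1.7 cells. Along the chain from YUMM1.7 cells to CBA, the group mean of chromosome 19 was 0.159 for F0, 0.0111 for F1 and 0.223 for F2, then 0.00795 for N2.1, -0.0839 for N2.2 and -0.115 for N2.3, and -0.129 for Balb/c-1, -0.246 for Balb/c-2 and -0.276 for its rep2 libraries.

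**Figure D4:**
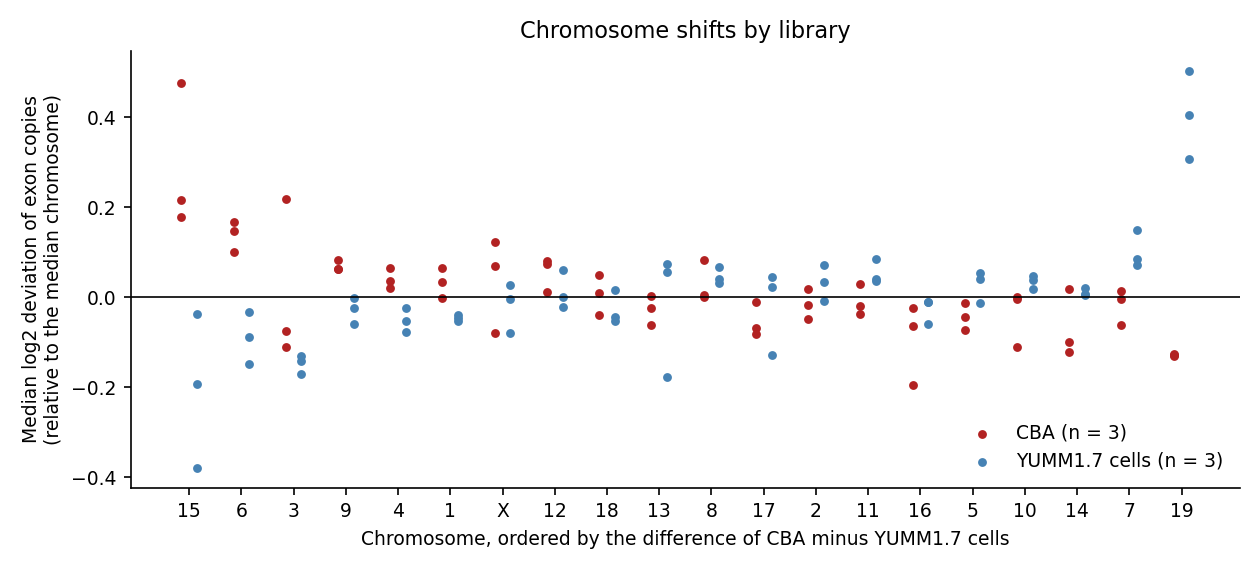
Shift of each chromosome (log2, median over exon copies relative to the library's median chromosome), 1 dot per library, CBA in red and YUMM1.7 cells in blue. Chromosome 15 is high and chromosome 19 low in all 3 CBA libraries, and CBA C alone is above 0 on chromosome 3.

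The other groups of the chain place these differences in the order of passage, and since the same 6 libraries chose the copies, their end values are a description. The 235 non-overlapping copies with a log2 fold change of at least 3 and a CBA mean of at least 20 had a median signal of 0.968 in YUMM1.7 cells. The median was 2.81 for F0, 3.38 for F1 and 2.43 for F2, then 17 for N2.1, 32.8 for N2.2 and 27.1 for N2.3, and 39.1 for Balb/c-1, 46.5 for Balb/c-2, 41.8 for its rep2 libraries and 37.2 at the end in CBA. The 172 copies lower by as much had a median of 50.6 in YUMM1.7 cells, 31.9 for F0, 29.2 for F1 and 37.6 for F2, then 14.3 for N2.1, 6.45 for N2.2 and 11.3 for N2.3, and 4.49 for Balb/c-1, 3.79 for Balb/c-2, 3.47 for its rep2 libraries and 2.41 at the end in CBA. The order of the 2 medians turned between F2 and N2.1. Counted copy by copy on the log2 scale, 15.7% of the higher set were past halfway in F2, 69.8% in N2.1 and 87.7% in N2.2; of the lower set 1.74% were past halfway in F2, 48.8% in N2.1 and 75.6% in N2.2. Balb/c-2 rep2 and Balb/c-2, from the 2 library sets, stood at 95.7% and 93.2% of the higher set and at 89.0% and 90.7% of the lower set.

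Single loci kept to this order with exceptions. The YREP_Mm copy of Gm773 had group means of 6.79 for F0, 4.65 for F1 and 1.95 for F2, then 183 for N2.1, 503 for N2.2 and 546 for N2.3, and 903 for Balb/c-1, 826 for Balb/c-2 and 805 for its rep2 libraries. The MuRRS-int copy of Zfp503 had 438 for F0, 511 for F1 and 416 for F2, then 173 for N2.1, 6.04 for N2.2 and 6.56 for N2.3, and 0 for Balb/c-1, 0.763 for Balb/c-2 and 0.368 for its rep2 libraries. The IAPEY4_I-int copy on chromosome 4 was read earlier, with 85.3 in F0, 338 in F1 and 433 in F2. The ID_B1 copy of Rasgrf1 had 204 for F0, 23.5 for F1, 89.8 for F2, 3.34 for N2.1 and 0.348 for N2.2. 5430421F17Rik came late, with 22.3 in N2.2, 12.8 in N2.3 and 135 in Balb/c-1. Pmaip1 had 420 in F2, 47.4 in N2.2, 132 in N2.3 and 10.6 in Balb/c-1, and Raet1e had 9.99 in F2, 60.7 in N2.2, 170 in N2.3 and 322 in Balb/c-1.

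**Figure D5:**
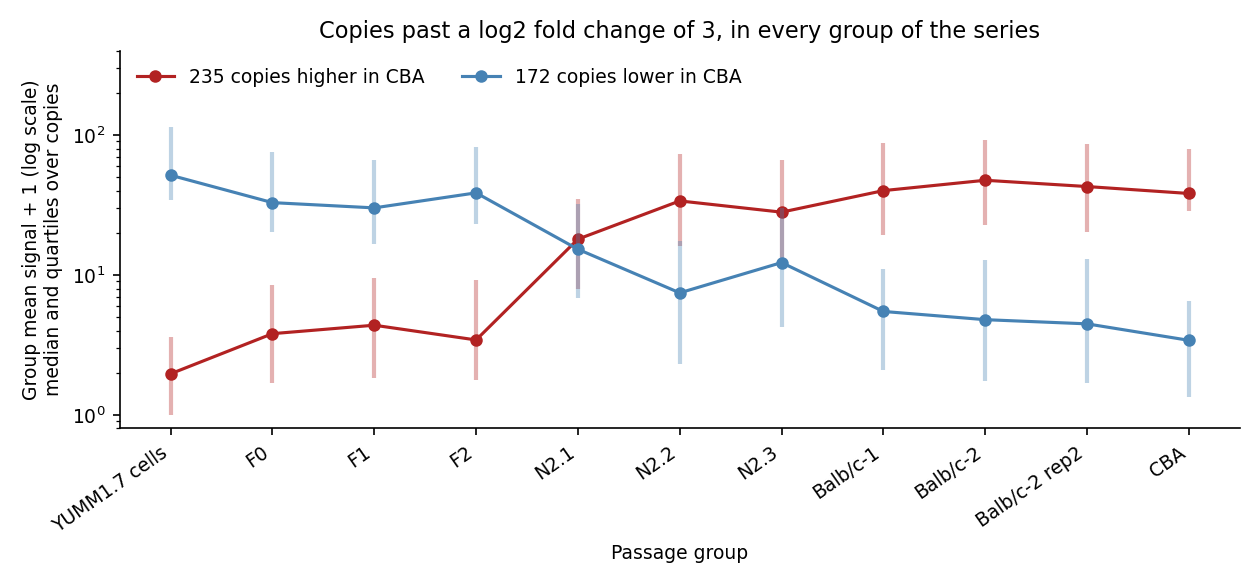
Median (dots) and quartiles (bars) over copies of the group mean signal + 1 (log axis) in the 11 groups in passage order, for the 235 copies higher (red) and the 172 lower (blue) in CBA than in YUMM1.7 cells by a log2 fold change of at least 3. The lines are apart through F2, meet at N2.1 and are apart the other way in N2.2 and after.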

How the data were processed

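The table the authors deposited has a row for each repeat copy and a column for each library. Its values are a normalised signal: whole reads that the authors scaled by a library factor, as 100% of values are whole multiples of the worth of 1 read (within 0.1 of a read; 0.966 to 1.17 in the 6 libraries). Build mm10 and, without their roles, the tools featureCounts 1.5.0-p3, StringTie 1.3.3b and HISAT2 2.0.5 are named in the submitters' processing notes; strand and multi-mapped reads are not mentioned in the sources used. Copies, subfamilies (sums by repeat name, compound names added to the internal part) and host genes (sums of copies in exons of that gene only) with a mean of at least 5 were tested with limma 3.58.1 (R 4.3.3) after taking log2(signal + 1), with 1 mean for each of 11 groups over 40 libraries, trended prior, two-sided, and Benjamini-Hochberg adjustment over all tested features. Fold changes on this scale understate low features; floors cover counting error only. Places are from GENCODE M21 (GRCm38) with bedtools 2.31.1, coordinates those of mm10, and plots used matplotlib 3.10.9, scipy 1.17.1, pandas 2.3.3 and numpy 2.4.6 in Python 3.11.15.

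The rule for named features takes the 8 highest and 8 lowest called copies, 6 and 6 subfamilies and 10 and 10 genes by log2 fold change (copies and genes without overlap), and examples from each list. The members and lists were chosen with earlier results of these data known. Alternatives were TMM scaling, edgeR 4.0.16 and DESeq2 1.42.0 on the recovered reads, other filters and pseudocounts, the intron share as covariate, the library set difference subtracted, the 6 libraries alone, a replicate block and leaving out each library. The letters A to C do not pair the groups: same-letter deviations correlated at 0.066, 0.0437 and 0.062, and other pairs at -0.0777 to 0.0125. On simulated data for this comparison of 33215 copies, none of 33015 unchanged copies was called, and 2% of those changed 2-fold and 26% of those changed 4-fold were. The simulation gave all copies 1 common spread (dispersion) and no other differences between groups. Only 100 copies changed 2-fold and 100 changed 4-fold, far fewer than were called in the data. These rates therefore do not carry over to the real calls.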

Additional observations from a re-analysis of the deposited data

How the results depend on the processing

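Leaving out 1 library gave 2068 (without CBA B) to 2981 called copies against 3446, 178 (without CBA C) to 254 subfamilies against 280, and 883 to 1205 genes against 1308; the copies numbered 2282 without YUMM1.7 replicate 3 and 2295 without CBA C. A minimum mean of 20 gave 1978 copies. The intron share as covariate gave 1473 copies, 73 subfamilies and 703 genes, and subtracting the library set difference gave 988 copies, 242 subfamilies (222 higher and 20 lower) and 382 genes; the cause was not tested. The subtraction adds error of its own, so its lower counts can also reflect lost precision. With the letters as a replicate block, 2543 copies, 275 subfamilies and 1046 genes were called. The 6 libraries alone gave 2522 copies, 242 subfamilies and 977 genes, and DESeq2 gave 3374 copies, 221 subfamilies and 1367 genes, edgeR 2971, 194 and 1288. None of these fits called a feature in the opposite direction to its main call. With the copies outside exons alone, 7 subfamilies were called in the direction opposite to their main call.

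Estimates that changed sign with copies outside exons alone were MuRRS-int 0.49, RLTR6-int 0.23, RLTR20C1_MM 0.93, ORR1E 0.46, L1MdF_III 0.96, Lx9 0.74, MIRc 0.56 and MER20 0.47, a sum over other copies by construction. B1_Mus1 had -0.038 with TMM scaling and -0.0396 with edgeR, and RLTR10-int had -0.0172 with the intron share as covariate. The number of chromosomes whose groups do not overlap was 11 with a minimum of 50 too, and 11 to 16 on leaving out a library, and the difference in intron share was 7.69 points, with 6.97 to 8.75 on leaving out a library. The depth of at most 1861048 reads in the 6 libraries leaves most of the 835636 copies untested.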
